A study of Mus musculus with 2 samples.

Results

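Laptm5-positive cells of differentiated urothelial organoids were the cells with at least 1 UMI (unique molecular identifier, which counts each captured RNA molecule once) of Laptm5. They numbered 317 of the 4896 cells kept in the library of differentiated organoids (6.47%, exact binomial 95% interval 5.80 to 7.20%), and the series held 11714 kept cells in all. A barcode was kept when it had over 800 detected genes and at most 12% of its UMIs from mitochondrial genes. The cells were chosen by their Laptm5 count, so the level of Laptm5 in them is a description and carries no test.

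Single-cell RNA sequencing (10x Genomics 3′ chemistry, version 3) was performed on organoids grown from the bladder epithelium of wild-type C57BL/6 mice aged 8 to 10 weeks. Proliferative organoids (P) stayed in complete medium with EGF, WNT3A, RSPO1, Noggin and the TGF-β receptor inhibitor LY2157299, and differentiated organoids (D) were moved to medium without these 5 factors. Each condition gave 1 library, so there was no replicate spread, and cells of 1 library are not replicates of a condition. No p-value was computed, and every interval below is a 95% interval that covers counting error only.

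LAPTM5 is a membrane protein of lysosomes known from white blood cells. It binds ubiquitin ligases of the NEDD4 family and directs receptors, among them the T and B cell receptors, to lysosomal breakdown. The urothelium is layered: basal cells with Krt5 and Krt14 sit on the basement membrane, intermediate cells lie above them, and luminal cells carry uroplakins, the plaque proteins of the apical surface.

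The D library held 6975 barcodes with 22949953 UMIs and the P library 8194 barcodes with 28921755 UMIs, and their kept cells had medians of 3227.5 and 3405.5 UMIs. The libraries shared 10 barcodes, and none of the Laptm5-positive cells carried one (0 of 317). Doublets were not removed, because the caller that was run placed no cell past its own threshold. The cells among the 5% with the highest doublet scores made up 7.26% of Laptm5-positive and 7.38% of depth-matched cells.

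Laptm5 lies on the plus strand of chromosome 4 (GRCm38, chr4:130913125-130936141), is protein-coding and overlaps no other annotated gene. The nearest gene downstream, Matn1, starts 8244 bases further and had 1 UMI in the kept D cells, and the nearest protein-coding gene upstream, Sdc3, ends 86806 bases away and had 339. Sdc3, a cell surface proteoglycan, gave 24 UMIs in Laptm5-positive cells and 146 in depth-matched cells, a ratio of 0.735 (0.456 to 1.14).

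The RefSeq promoter window of Laptm5 (GRCm38.p6, 250 bases before to 50 bases after the start that RefSeq annotates) was searched on both strands for GGAAGT, a core bound by ETS-family factors, the family of the leukocyte regulator Spi1 and of the epithelial factors Elf3 and Ehf. The stretch around the single match, at chr4:130913241-130913270 on the plus strand, is shown because it is the place in the promoter where such a factor could be read from sequence. Capitals mark the match, whose last base lies 58 bases before the RefSeq start. That start lies downstream of the GENCODE start of the gene given above, so that by the GENCODE annotation the match is inside the gene.
Laptm5: tgagggcaaggcGGAAGTgaggcaggcagc

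The same letters occur in 7809 of 32851 promoter windows (23.8%), and among the 10 leading higher genes described below 2 of the 7 with a window held them. The match is a description and not a binding site. Spi1 had 0 UMIs over the kept D cells. Elf3 stood at 185 counts per 1000000 UMIs (CPM) in Laptm5-positive and 152 in depth-matched cells, and Ehf at 325 and 315.

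Laptm5 was found almost entirely in differentiated organoids. The kept D cells held 400 Laptm5 UMIs, a level of 19.7 CPM (17.8 to 21.7). The kept P cells held 7 UMIs, each in a separate cell, which is 0.262 CPM (0.105 to 0.541) and 0.103% of 6818 cells (0.0413 to 0.211%). After every cell was thinned to 2100 UMIs, 143 of 4417 D cells (3.24%, 2.74 to 3.80%) and 3 of 6638 P cells (0.0452%, 0.00932 to 0.132%) kept a Laptm5 UMI. The thinning left out 479 D cells and 180 P cells that were shallower, among them 13 of the 317 Laptm5-positive cells.

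Most Laptm5-positive cells were so by a single molecule. There were 251 cells with 1 UMI (79.2%), 54 with 2, 9 with 3, 2 with 4 and 1 with 6, so that 66 cells (20.8%) held 2 or more. The cell with 6 Laptm5 UMIs had 9490 UMIs in all, with 28 of Krt14 and 1 of the uroplakins. Of the 2 cells with 4, one had 62 UMIs of Krt14 and none of the uroplakins, and the other 8 and 37. The cells richest in Laptm5 were therefore not of 1 kind in these marker genes.

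Laptm5 was detected more often in deeper cells. With kept D cells split into 5 groups of near-equal size by depth, from the shallowest to the deepest, the share with Laptm5 was 2.25%, 3.06%, 5.01%, 6.84% and 15.2%. The level in the same groups was 11.8, 13.3, 18.3, 17.9 and 25.02 CPM. A cell without a Laptm5 UMI may thus still express the gene, and the comparison cells below are cells without a detected molecule. Laptm5-positive cells had a median of 4790 UMIs (1435 to 23380) against 3159 in all cells without Laptm5, so each was matched to 5 cells without Laptm5 of nearest total UMIs. The 1585 matched cells had a median of 4791 UMIs. The match was close at the median but not at the deep end, where the 90th percentiles were 13222 and 10168 UMIs. Mitochondrial genes took 7.73% of UMIs in Laptm5-positive and 7.32% in matched cells, and ribosomal protein genes 21.3% and 21.2%.

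The Laptm5-positive cells carried the epithelial markers of their matched cells and lacked most leukocyte markers. The 9 epithelial markers, among them Epcam, Cdh1, Krt5 and Krt19, gave 14334 CPM in Laptm5-positive and 14012 CPM in matched cells. None of the 9 passed a ratio of 1.5 either way, and their median log2 ratio was 0.00, beside -0.04 over all 10954 genes measured with at least 20 UMIs. Of all those genes 3.75% passed upward and 9.82% downward, so the lack of a pass among 9 genes is near that share. Krt5 stood at 4004 and 3933 CPM. All 317 cells held epithelial UMIs, as did all 1585 matched cells.

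Of 14 other genes that mark white blood cells in general, 10 had no UMI in any Laptm5-positive cell. These were Ptprc (CD45), Tyrobp, Fcer1g, Coro1a, Cd52, Rac2, Cd48, Vav1, Itgb2 and Spi1. That Ptprc and Tyrobp were almost absent was already known when these cells were chosen, so their absence is a description. The absence was also not particular to these cells. Over all kept D cells Ptprc had 2 UMIs and Tyrobp 0, and 6 of the 14 genes had none. An absence of UMIs in these cells allows a level of up to 1.79 CPM by the upper Poisson limit. The summed list stood at 15.1 CPM (10.2 to 21.4) in Laptm5-positive and 16.5 CPM (13.99 to 19.4) in matched cells. It rested on Lcp1, an actin-bundling protein, with 14 and 32 UMIs (ratio 1.96, 0.964 to 3.77), on Arhgdib with 10 and 82, and on Cytip, a regulator of cell adhesion, with 6 and 34. The list as a whole did not stand higher in Laptm5-positive cells.

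Lists for single blood lineages held few detected genes. Dendritic cell, B cell and erythroid markers had no UMI in Laptm5-positive cells, and T and NK cell markers had 3. Among macrophage markers, Csf1r, Adgre1, Lyz2 and the 3 C1q genes had none, while Cd14, a co-receptor for bacterial lipopolysaccharide, had 170 UMIs against 644 in matched cells (ratio 1.18, 0.991 to 1.40) and the endolysosomal protein Cd68 had 17 against 58. Of the granulocyte and mast cell list Kit alone was detected, at 23.8 and 15.5 CPM (ratio 1.53, 1.08 to 2.13; 1.35 when matched within cluster). The fibroblast markers were mostly Dcn, a matrix proteoglycan, which was lower in Laptm5-positive cells (19.4 against 45.5 CPM, ratio 0.427) and stood at 0.810 (0.563 to 1.14) within clusters.

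**Figure D1:**
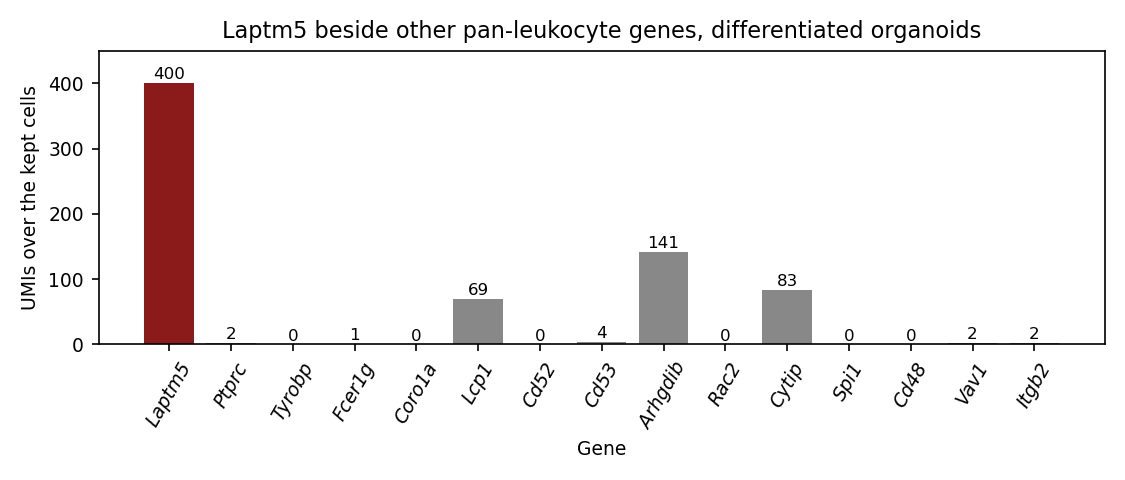
UMIs of Laptm5 and of 14 other pan-leukocyte genes (horizontal axis) summed over the 4896 kept cells of differentiated organoids (vertical axis, UMIs, with each number above its bar). Laptm5 reached 400 UMIs, Arhgdib 141, Cytip 83 and Lcp1 69, and each of the other 11 genes had 4 UMIs or fewer.

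Laptm5 differed between the clusters of the epithelium. Kept D cells were grouped into 3 clusters without the use of Laptm5. Cluster 0 (2782 cells, led by Krt1, Tspan1 and Cyp2f2) and cluster 2 (800 cells, led by Ppbp, Ly6g6c and Upk3a) held 221 and 91 Laptm5-positive cells. Cluster 1 (1314 cells, led by Acta2, Htra1 and Sparc) held 5. Laptm5 stood at 24.2 CPM (21.5 to 27.2) in cluster 0, 24.9 CPM (20.5 to 29.998) in cluster 2 and 1.21 CPM (0.394 to 2.83) in cluster 1. The level in clusters 0 and 2 together was 20.1-fold that of cluster 1 (8.56 to 62.4).

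The order held at equal depth. The clusters had median depths of 3235.5, 2676.5 and 4457 UMIs, and the unthinned shares of cells with Laptm5 were 7.94%, 0.381% and 11.4% for clusters 0, 1 and 2. At the equal depth of 2100 UMIs the shares were 4.16% (3.42 to 5.001%), 0.0963% (0.00244 to 0.536%, 1 of 1038 cells) and 4.34% (3.03 to 6.02%). Clusters 0 and 2 did not differ beyond counting error in CPM or in the share at equal depth, while the unthinned share was higher in the deeper cluster 2. Cluster 1 lay below both, with intervals that did not overlap theirs. The thinned share in P cells was of like size to that in cluster 1, at 0.0452% (3 of 6638 cells), and both rested on few cells. Whether these few molecules came from the cells themselves was not tested. At a finer resolution 4 clusters were found, of which one at 1.29 CPM and another at 3.87 CPM (1.85 to 7.11) stood below the other two, at 27.5 and 28.1 CPM.

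**Figure D2:**
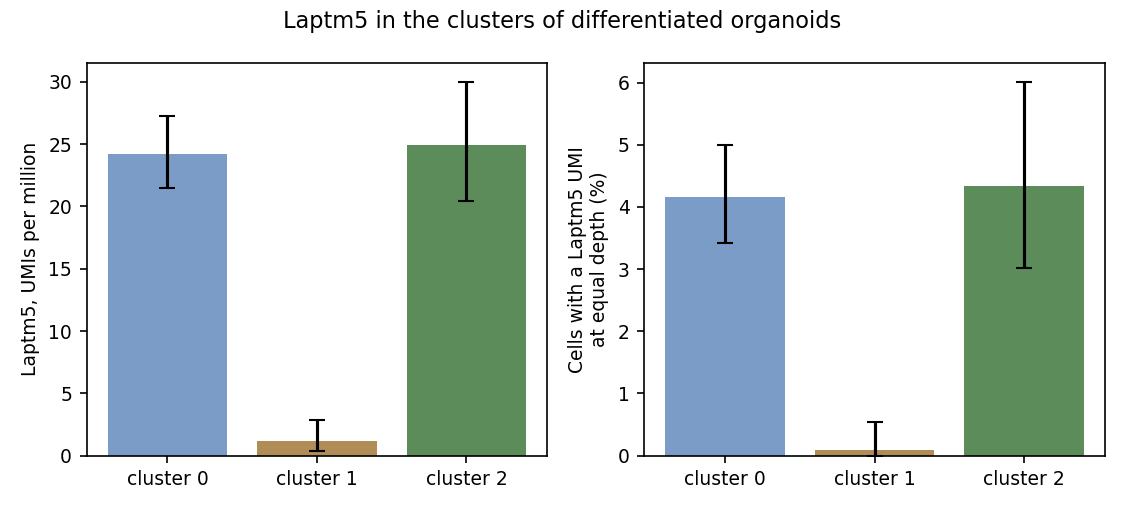
Laptm5 level in CPM (left) and the percentage of cells with a Laptm5 UMI after thinning to 2100 UMIs (right) in the 3 clusters of differentiated organoids, with bars from 0 and 95% intervals for counting error. Clusters 0 and 2 stood at 24.2 and 24.9 CPM and cluster 1 at 1.21 CPM.

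Laptm5 was lowest in cells rich in Krt14 and highest at moderate uroplakin content. Cells were binned by their own Krt14 UMIs at the equal depth of 2100, and the Laptm5 level was then taken from their full counts. It was 24.1 CPM (20.2 to 28.5) in the 1303 cells without Krt14, 29.8 CPM at 1 to 2 Krt14 UMIs, 24.3 CPM at 3 to 6, 13.5 CPM (9.28 to 18.9) at 7 to 15 and 2.34 CPM (1.07 to 4.45) in the 1080 cells with 16 or more. The first 3 bins did not differ beyond counting error, and the last lay below every other bin. The thinned shares of Laptm5-positive cells were 4.84%, 4.59%, 4.75%, 1.14% and 0.370% in the same order.

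Along the summed UMIs of 5 uroplakin genes the Laptm5 level was 11.8 CPM (9.50 to 14.5) in the 2051 cells without any, 25.8 CPM (21.9 to 30.3) at 1 to 2 UMIs, 29.6 CPM (23.9 to 36.2) at 3 to 5, 21.4 CPM (14.5 to 30.4) at 6 to 10 and 14.3 CPM (8.35 to 23.0) in the 226 cells with 11 or more. The bins at 1 to 2, 3 to 5 and 6 to 10 UMIs lay above the cells without uroplakins. For the bin at 6 to 10 this was narrow, with a lower bound of 14.53 CPM against an upper bound of 14.49 CPM. The bin at 3 to 5 lay above that with 11 or more. The highest bin and the cells without uroplakins did not differ beyond counting error. Thinned shares ran the same way, at 1.66%, 4.35%, 6.14%, 4.30% and 2.21%. Of the 317 Laptm5-positive cells, 281 (88.6%) held at least 1 uroplakin UMI at full depth, against 70.2% of matched cells. The summed uroplakin level was not higher, at 1358 CPM in Laptm5-positive and 1477 CPM in matched cells. The Laptm5-positive cells were also deeper, with means of 6497 and 5809 UMIs. Cluster 1 held 1.58% of Laptm5-positive and 21.01% of matched cells.

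**Figure D3:**
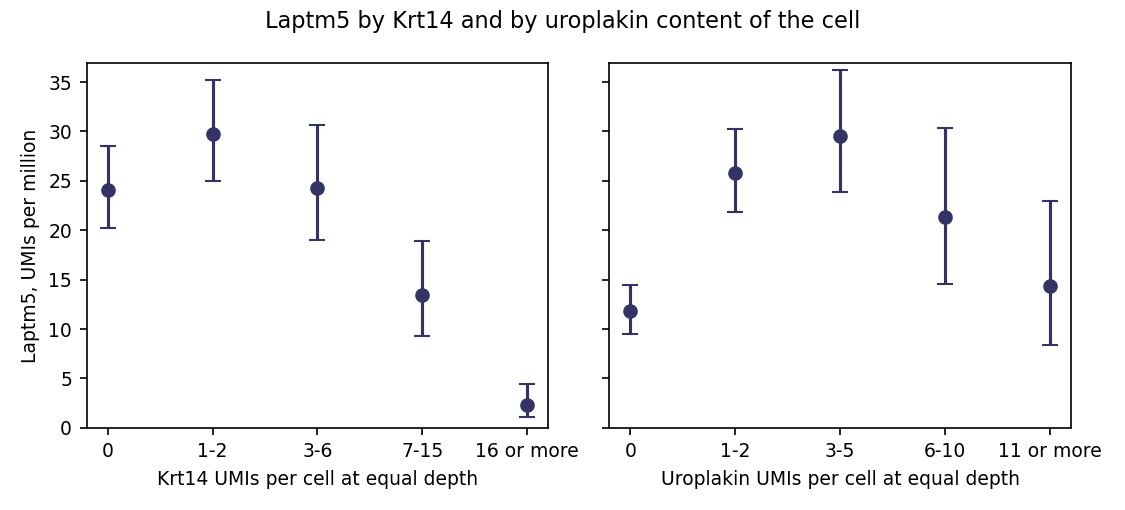
Laptm5 level in CPM (vertical axis, points with 95% intervals for counting error) in cells of differentiated organoids binned by Krt14 UMIs (left) or summed uroplakin UMIs (right) per cell at 2100 UMIs. The level was 2.34 CPM in cells with 16 or more Krt14 UMIs and 24.1 CPM in cells without Krt14, and it reached 29.6 CPM at 3 to 5 uroplakin UMIs.

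Against depth-matched cells, genes were called when their CPM differed at least 1.5-fold, with a minimum of 300 UMIs for a gene over both sets. Laptm5 itself was left out. Of 4622 genes, 25 (0.541%) were higher in Laptm5-positive cells and 97 (2.1%) were lower. These are calls of size in 1 library and not tests. The 2 sets differed in cluster makeup: 69.7%, 1.58% and 28.7% of Laptm5-positive cells lay in clusters 0, 1 and 2, against 56.7%, 21.01% and 22.3% of matched cells. Cells were therefore also matched within their own cluster, with medians of 4790 and 4772 UMIs. Of 4479 genes then measured, 8 (0.179%) were higher and 19 (0.424%) were lower. This match used the 3 clusters, so the makeup inside them may still differ. At the finer resolution the cluster at 3.87 CPM held 3.15% of Laptm5-positive and 12.2% of depth-matched cells. A match within the finer clusters was not made.

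The 10 genes that stood highest, ranked by the bound of their interval nearest to 1, were secreted and mucosal proteins, metabolic enzymes and surface proteins. Ltf (lactoferrin, an iron-binding antimicrobial protein; chr9:111019271-111042767) stood at 81.6 CPM in Laptm5-positive and 33.0 CPM in matched cells, a ratio of 2.47 (2.03 to 2.99), and was detected in 22.1% and 6.62% of cells. Sftpd (surfactant protein D, a lectin of mucosal defence; chr14:41172214-41185149) stood at 19.4 and 6.63 CPM, a ratio of 2.93 (1.92 to 4.44). Olfm4, a secreted glycoprotein (chr14:79984081-80023139), stood at 227 and 132 CPM (ratio 1.72, 1.55 to 1.92) and was detected in 52.4% and 30.5% of cells. All of these genes were more often detected in Laptm5-positive cells.

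Akr1c18, a steroid dehydrogenase (chr13:4132615-4150654), stood at 77.2 and 36.3 CPM, a ratio of 2.13 (1.75 to 2.58). Cyp2f2, a cytochrome P450 of xenobiotic metabolism (chr7:27119909-27133660), was the most abundant of the set, at 551 and 338 CPM (ratio 1.63, 1.52 to 1.74), and was detected in 76.7% and 51.0% of cells. The remaining 5 were low: Prom1 (prominin-1, a protein of membrane protrusions) had 29 and 46 UMIs, and its ratio was 2.82 (1.71 to 4.58). Calcb (a calcitonin gene-related peptide) had 54 and 104 UMIs, Mill2 (a relative of MHC class I) 22 and 34, Lgi2 (a secreted leucine-rich repeat protein) 39 and 73, and Ern2 (the mucosal form of the endoplasmic reticulum stress sensor IRE1) 21 and 33. Their ratios lay between 2.32 and 2.89.

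More of the 10 genes were detected per cell in Laptm5-positive than in matched cells, with medians of 2 and 1. At least 4 of the 10 were detected in 51 of 317 Laptm5-positive cells (16.1%) and in 62 of 1585 matched cells (3.91%). None of the 10 was detected in 24 Laptm5-positive cells (7.57%) and 580 matched cells (36.6%). The 10 genes were ranked as higher on these same cells, so higher counts per cell follow from the ranking and only describe them. The Laptm5-positive cells were also deeper on average, with means of 6497 and 5809 UMIs. Whether the genes occurred together in a cell was not tested.

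Within clusters the same 10 genes remained higher, with ratios of 1.41 (Cyp2f2) to 2.80 (Mill2), and 9 of the 10 stayed past 1.5. Their sum was 1036 CPM in Laptm5-positive cells against 577 CPM in depth-matched cells (1.79-fold, 1.71 to 1.89) and 660 CPM in cells matched within cluster (1.57-fold, 1.49 to 1.65). Ltf was 3.57-fold higher (2.46 to 5.15) in cluster 0 and 1.86-fold higher (1.48 to 2.33) in cluster 2. Akr1c18 was 1.86-fold (1.504 to 2.30) and 2.21-fold (1.37 to 3.50) higher there. Sftpd was concentrated in cluster 2 (31.2 CPM, against 2.55 in cluster 0) and was 2.67-fold higher (1.70 to 4.12) in its Laptm5-positive cells. Ern2 had 21 UMIs in Laptm5-positive cells of cluster 0 and none in those of cluster 2.

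The same sums were taken on both sides of 2 Laptm5 molecules, as a description, since the Laptm5 count chose the cells and the 10 genes were ranked in them. In the 251 cells with 1 UMI, the 10 genes stood at 979 CPM against 573 in their matched cells (1.71-fold, 1.61 to 1.81), and in the 66 cells with 2 or more at 1207 against 599 CPM (2.01-fold, 1.83 to 2.21). Ltf was 2.13-fold (1.70 to 2.65) and 3.21-fold (2.20 to 4.66) higher in these sets, and Olfm4 1.84-fold (1.62 to 2.08) and 1.63-fold (1.30 to 2.02). For each of these 2 genes the intervals overlapped, and the larger ratio was in a different set.

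The other genes called higher, which were outside the rule for named genes and were read after their values were seen, included Lgals4, a galectin of mucosal epithelia (55.3 against 30.6 CPM; 1.81-fold), Adam8, a membrane metalloprotease (81.1 against 46.2; 1.76-fold), Gsta3, a glutathione transferase (51.5 against 29.2; 1.76-fold), and Tmprss4, a membrane serine protease (56.3 against 34.1; 1.65-fold). These 4 genes kept ratios of 1.67, 1.60, 1.54 and 1.53 within clusters. Gabrp, a GABA-A receptor subunit, stood at 287 and 177 CPM (1.62-fold) and Cldn3, a tight junction claudin, at 77.7 and 47.2 CPM (1.64-fold), and their ratios within clusters were 1.34 and 1.31.

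**Figure D4:**
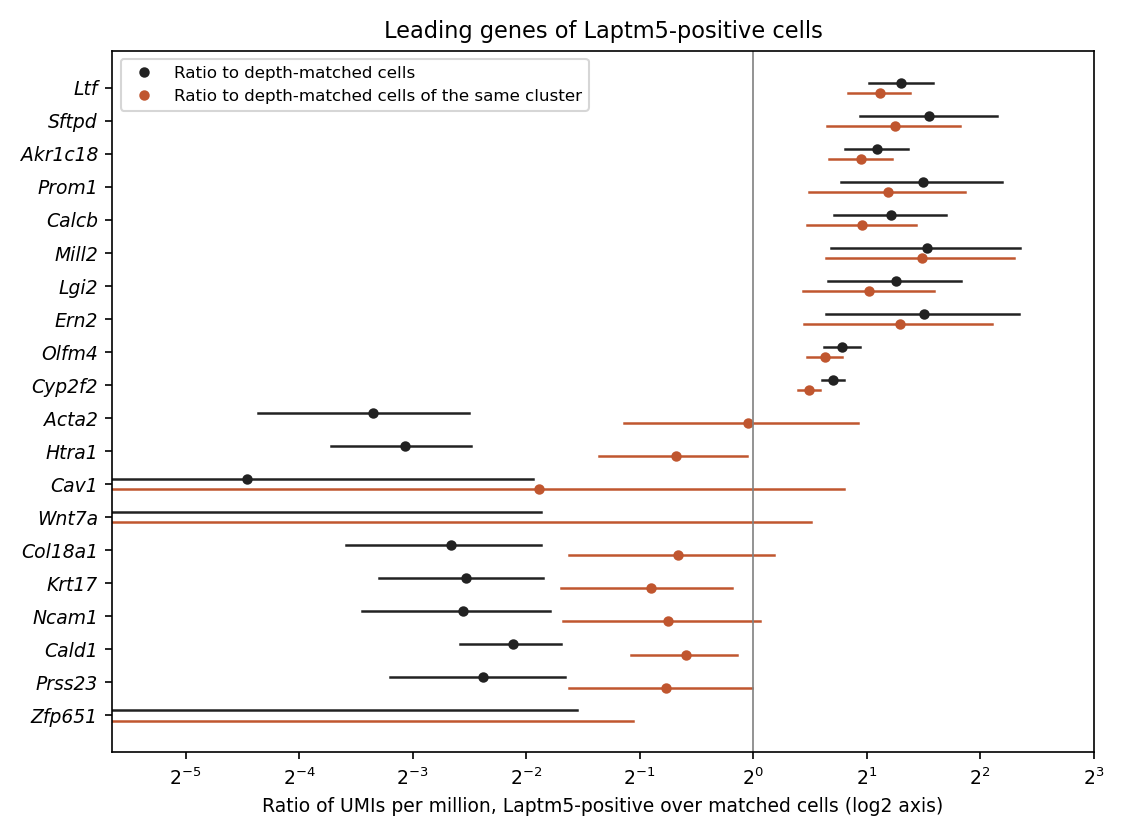
Ratio of CPM in Laptm5-positive cells to matched cells (log2 axis) for the 10 leading higher and 10 leading lower genes, with 95% intervals for counting error, against depth-matched cells (black) and against depth-matched cells of the same cluster (orange). Lines that run off the left edge go on to lower values, and Wnt7a and Zfp651, with no UMI in Laptm5-positive cells, have no point. Within clusters 9 of the 10 higher and 9 of the 10 lower genes stayed past 1.5-fold, and Acta2 moved from 0.0979 to 0.973.

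The 10 leading lower genes, several of them contractile, matrix or basal genes, each had a higher level in cluster 1 than in clusters 0 and 2. Acta2, the smooth muscle actin (chr19:34241090-34255590), had 11 UMIs in Laptm5-positive and 502 in matched cells, 10.2-fold lower (5.66 to 20.6). Htra1, a secreted serine protease (chr7:130936111-130985660), had 24 and 901, 8.40-fold lower (5.61 to 13.2). Col18a1, a basement membrane collagen, was 6.32-fold lower, the adhesion molecule Ncam1 5.88-fold, the basal keratin Krt17 5.78-fold, the serine protease Prss23 5.20-fold and the actin-binding Cald1 4.34-fold. The shares of cells with a UMI differed less than the summed UMIs for Acta2 (3.15% and 6.75%), Htra1 (5.68% and 20.1%) and Krt17 (2.84% and 7.63%). Cav1, a coat protein of caveolae, had 1 and 98 UMIs (ratio 0.0456, 0.00114 to 0.260). Wnt7a, a Wnt ligand, had none against 62 UMIs, and the interval of its ratio reached up to 0.274. The zinc finger gene Zfp651 had none against 50 UMIs, and its interval reached up to 0.342.

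Most of this difference went with the cluster. Acta2 stood at 183 CPM in cluster 1 and at 4.08 and 7.69 CPM in clusters 0 and 2, and Htra1 at 439, 15.3 and 12.7 CPM. Summed over the 10 genes, Laptm5-positive cells were 6.38-fold lower (5.40 to 7.59) than depth-matched cells and 1.67-fold lower (1.40 to 2.002) than cells matched within cluster. Of the 10 genes 9 stayed at least 1.5-fold lower within clusters, and Acta2 did not, at a ratio of 0.973 (0.456 to 1.90). Zfp651 had 0 UMIs against 35 within clusters, with an upper bound of 0.482. Krt17 had 1 UMI in Laptm5-positive cells of cluster 0 against 81 in matched cells of that cluster, and 16 against 63 in cluster 2 (ratio 1.14, 0.615 to 1.9998).

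Most contractile and matrix genes and 3 of 7 basal genes were lower in Laptm5-positive cells. Over all genes with at least 20 UMIs, 3.75% passed 1.5-fold upward and 9.82% downward, and over the 10800 genes so measured within clusters 3.58% and 6.91%. Of 7 basal genes 3 passed downward and none upward: Krt14 (1305 against 3312 CPM, ratio 0.394, 0.379 to 0.410), the hemidesmosome integrin Itgb4 (0.534; 0.772 within clusters) and the hemidesmosome collagen Col17a1 (0.432; 0.664 within clusters). Krt5 (1.02), Cd44 (1.01) and the integrin Itga6 (0.840) did not pass, and the list's median log2 ratio was -0.38 (-0.17 within clusters). Within clusters Krt14 stood at a ratio of 0.706. The 10 contractile genes had 9 lower (median -1.55), and the 9 matrix and basement membrane genes 8 lower (median -1.19), among them the laminin chain Lama3 (0.438; 0.784 within clusters) and the anchoring collagen Col7a1 (0.320; 0.845 within clusters). Within clusters 1 of 7 basal, 2 of 7 contractile and 1 of 8 matrix genes passed downward, and the medians of the last 2 lists were -0.22 and -0.16.

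UMIs of division genes were also rarer in sum. Of 10 measured proliferation genes 7 passed downward, with Mki67 at 3 and 61 UMIs, Top2a at 4 and 82 and Ube2c at 0 and 48. The shares of cells with these genes lay closer together. Mki67 was detected in 0.946% of Laptm5-positive and 2.27% of matched cells, Top2a in 1.26% and 1.32% and Ube2c in 0% and 0.694%. At least 1 UMI of the 12 listed proliferation genes was found in 18.3% and 17.7% of cells. The 3 that did not pass were the replication genes Pcna (0.857), Mcm2 (1.12) and Tyms (0.965). The list's median log2 ratio was -2.19, and -0.04 over the 4 genes measured within clusters.

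Intermediate genes lay within 1.5-fold of matched cells. None of 9 intermediate genes passed either way (median log2 0.16), beside 3.75% of all genes measured upward and 9.82% downward. Psca, a surface protein of the urothelium, came nearest at 2901 and 1971 CPM (ratio 1.47, 1.43 to 1.52). Of the 9 genes 6 stood above 1. The keratins Krt8 (1381 against 1534 CPM), Krt18 (ratio 0.894, 0.847 to 0.943) and Krt13 (0.859, 0.645 to 1.13) stood below 1. Krt4, from a separate list of suprabasal keratins, stood at 2077 and 1403 CPM (ratio 1.48, 1.43 to 1.53). Of the 6 genes in that list 2 stood above 1, and its median was -0.13. None of 8 urothelial transcription factors passed (median 0.14). Foxa1 stood at 1.25 (1.10 to 1.43), Pparg at 1.15 (0.909 to 1.45) and Gata3 at 1.05 (0.955 to 1.16).

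Among the uroplakins 1 of 5 passed, downward, as did 9.82% of all genes measured. Upk3a stood at 253 CPM in Laptm5-positive and 423 CPM in matched cells, a ratio of 0.598 (0.545 to 0.656). The share of cells with Upk3a went the other way, at 27.8% of Laptm5-positive and 22.6% of matched cells, the former deeper on average. Upk1a stood at 622 and 541 CPM (1.15, 1.08 to 1.22), Upk1b at 417 and 451 (0.924) and Upk2 at 50.01 and 44.8 (1.12). The ratio of Upk3a differed between clusters: it was 1.36 (1.16 to 1.59) in cluster 0 and 0.36 (0.319 to 0.404) in cluster 2, where Upk3a was most abundant. Ppbp, a platelet-type chemokine that led cluster 2 and was chosen after its values were seen, stood at 1.28 (0.798 to 1.98) in cluster 0 and 0.406 (0.315 to 0.515) in cluster 2. The cornified envelope gene Sprr1a stood at 0.688 (0.650 to 0.728) against depth-matched cells. The summed levels of Upk3a and Ppbp in Laptm5-positive cells of cluster 2 were thus below those of other cells of that cluster of the same depth.

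Lysosomal genes passed 1.5-fold about as often as all genes measured, of which 3.75% passed upward and 9.82% downward. The family members Laptm4a (378 against 366 CPM, ratio 1.03, 0.953 to 1.12) and Laptm4b (0.955, 0.746 to 1.21) did not pass. Of 15 lysosome membrane genes 1 passed downward and none upward, with a median log2 ratio of -0.03: Lamp1 stood at 0.990, Lamp2 at 1.03, and Atp6v0d1, a proton pump subunit, at 1.37 (1.16 to 1.62). Of 21 lysosomal hydrolases, Glb1 (β-galactosidase; 31 and 86 UMIs, ratio 1.61, 1.03 to 2.46) passed upward, and the cathepsins Ctsl (0.632, 0.561 to 0.711; 0.986 within clusters) and Ctsz (1 and 24 UMIs) downward. None of 13 endosome and ESCRT genes passed (median -0.01).

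Of 13 genes for known or likely LAPTM5 partners, namely NEDD4-family ligases, their adaptors, GGA sorting proteins and Tnfaip3, 1 passed. That gene passed downward, as did 9.82% of all genes measured. Nedd4 stood at 333 and 395 CPM (ratio 0.843, 0.775 to 0.915), Itch at 1.07 and Wwp2 at 1.15. Tnfaip3, the A20 brake on NF-kB signalling, had 3 and 48 UMIs (ratio 0.279, 0.0557 to 0.867; 0.333 within clusters).

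Among the lists drawn with at least 5 measured genes, xenobiotic metabolism had the highest median, 0.48 on the log2 scale (0.34 within clusters). All 11 stood above 1 against depth-matched cells, and 2 passed 1.5-fold, Cyp2f2 and the alcohol dehydrogenase Adh7 (1.60). The carbonyl reductase Cbr2 stood at 1.47 and the glutathione transferase Gsto1 at 1.43. Within clusters none of the 11 passed and 8 stood above 1. Cyp2f2 is one of the genes that led cluster 0.

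At most 1 gene in each signalling list passed upward. Among all genes measured, 3.75% passed upward and 9.82% downward, so a single pass in a list of this size is near that share. Of 11 NF-kB and cytokine genes the chemokine Cxcl5 alone passed (144 against 87.0 CPM, ratio 1.66, 1.45 to 1.90; 1.30 within clusters). None of 12 early response genes passed (median 0.00), nor did any of 6 genes of class I antigen presentation, of which H2-K1 stood at 1.26 (1.15 to 1.37). Of 10 interferon genes Psmb8 passed upward (1.70, 1.14 to 2.49; 1.36 within clusters) and Ifit1, Ifit3 and Isg15 downward, each on 5 UMIs or fewer in Laptm5-positive cells. Of 11 Wnt genes 4 passed downward, with Wnt10a at 11.2 and 35.1 CPM (0.318; 0.967 within clusters), and of 9 Notch genes 2, with the ligand Jag2 at 0.406 (0.784 within clusters). The Notch target Hes1 stood at 1152 and 1177 CPM (0.978, 0.935 to 1.02). Of 11 TGF-β target genes 4 passed downward and of 7 YAP target genes 4, with medians of -0.44 and -0.77 that were -0.16 and 0.00 within clusters. Of 7 squamous genes 2 passed downward (median -0.54), and of 9 hypoxia and glycolysis genes 1.

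**Figure D5:**
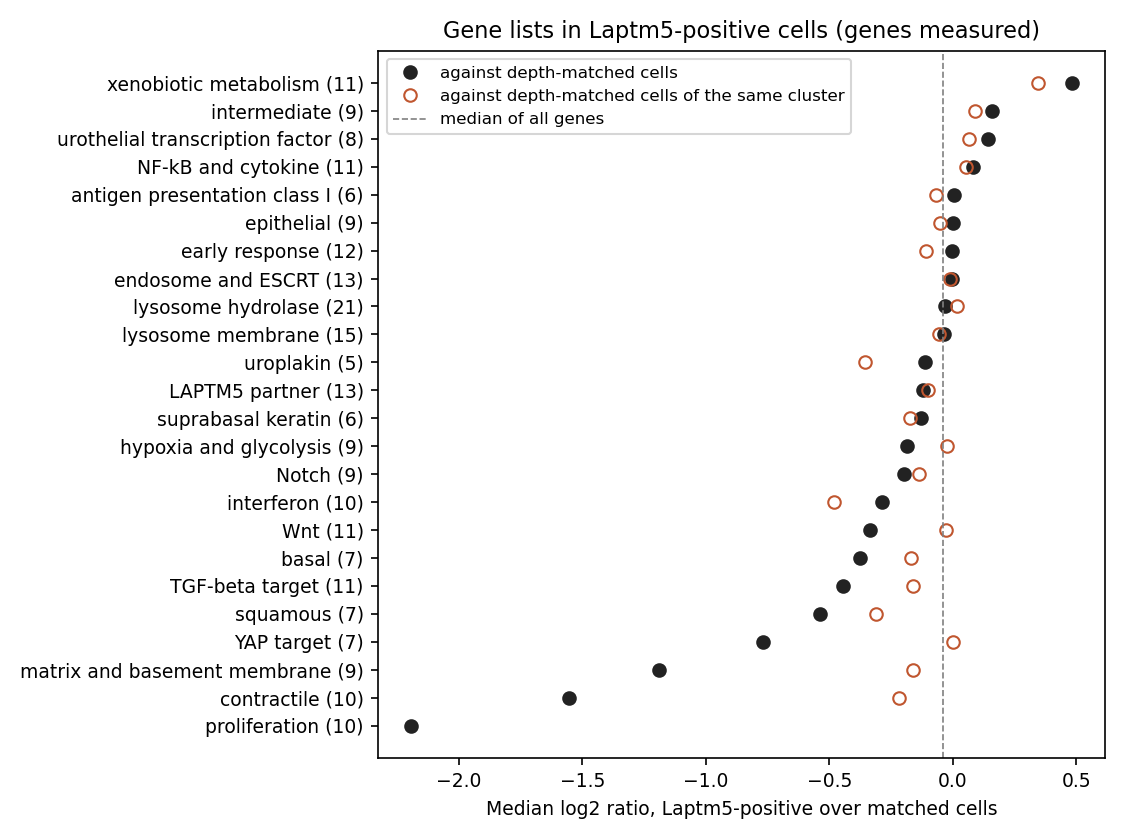
Median log2 ratio of CPM, Laptm5-positive over matched cells (horizontal axis), for gene lists with at least 5 measured members (number in parentheses), against depth-matched cells (filled) and depth-matched cells of the same cluster (open, drawn where at least 5 members were measured). The dashed line is the median of all genes. Xenobiotic metabolism stood highest at 0.48, and contractile and matrix genes moved from -1.55 and -1.19 to -0.22 and -0.16 within clusters.

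Cells that the mitochondrial limit had left out gave a separate reading of the leading genes. Of 30 left-out D barcodes with Laptm5, 17 had 800 genes or fewer and 13 were over the mitochondrial limit only. These 13, of 298 such barcodes, were matched to 65 without Laptm5. The sum of the 10 higher genes was 1.28-fold that of the matched barcodes (0.918 to 1.75), an interval that includes 1, and 8 of the 10 stood above 1. Apart from Cyp2f2 (27 and 108 UMIs) and Olfm4 (15 and 45), each had 2 UMIs or fewer in these 13 barcodes. The directions of the low genes thus rest on single molecules. Akr1c18 (1 and 19) and Prom1 (0 and 2) stood below 1. The sum of the 10 lower genes was 1.71-fold lower (1.04 to 2.96). The 1.79-fold of the kept cells lay just above the upper bound of 1.75, and the 6.38-fold of the lower genes lay above that of 2.96.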

How the data were processed

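The submitters' processing notes name bcl2fastq 2.19.0, Cell Ranger 3.0.2 and the build GRCm38 (mm10). The deposited matrices hold raw counts of UMIs per gene and barcode, with no normalization. Cells with over 800 genes and at most 12% mitochondrial UMIs were kept, following the study's stated filter: 4896 in D and 6818 in P. The study states 6826 cells for P, the number that results when cells with exactly 800 genes are also admitted. The members and gene lists were chosen with earlier results of these data known.

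UMIs were summed over cells and expressed per 1000000 (CPM), so that levels are relative to all RNA counted. Intervals are exact Poisson (CPM), Clopper-Pearson (shares) and conditional binomial (ratios), at 95%. Matching took 5 cells per Laptm5-positive cell, in descending order of depth, without reuse. Clustering used Seurat 5.3.0 in R 4.3.3 with 2000 variable features less Laptm5, 21 principal components and Louvain resolution 0.2. Scrublet in scanpy 1.11.5 scored doublets. A list's median and counts cover members with at least 20 UMIs over both sets. The named genes are the list members, the genes next to Laptm5 and, in each direction, the 10 genes with at least 50 UMIs whose interval lay farthest from 1. Gene coordinates come from the GENCODE annotation of GRCm38. The code of the comparison was checked on simulated Poisson totals. These follow the counting model that the intervals assume, so spread between cells was not tested. Thinning used 1 random draw.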

Additional observations from a re-analysis of the deposited data

Results flagged for a closer look

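Laptm5 was also present in the 2079 barcodes of differentiated organoids that the filter left out, cells outside the main comparisons above. They held 36 Laptm5 UMIs in 30 barcodes, or 17.4 per 1000000 non-mitochondrial UMIs (12.2 to 24.1, counting error only), against 21.2 (19.2 to 23.4) in the kept cells. The 1376 barcodes left out in proliferative organoids held 1 UMI, or 0.502 per 1000000 (0.0127 to 2.80).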

How the results depend on the processing

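The share of Laptm5-positive cells was 6.47%, and 1.35% when 2 UMIs were required and 3.24% at equal depth. The ratio of Laptm5 between clusters 0 and 2 and cluster 1 ranged from 18.7 to 46.1 over its 4 alternatives. The counts of 25 higher and 97 lower genes moved with the comparison cells, at 7 and 22 with 1 matched cell per Laptm5-positive cell, 71 and 279 against all cells without Laptm5, and 8 and 19 within clusters. With 3 matched cells 55 genes were lower. Averages over cells in place of sums gave 45 and 155, a minimum of 100 UMIs 109 and 363, a minimum of 1000 UMIs 5 and 18, a ratio of 2 gave 2 and 35, and cells with 2 or more Laptm5 UMIs 10 and 26. Fewer cells and higher minimums test fewer genes by construction; for the other alternatives the cause was not tested. Looser and stricter filters, matching on detected genes, 2 other scalings and leaving out the highest doublet scores stayed within 1.5 times, as did leaving out barcodes found in both libraries, which was chosen after the data were seen. Among alternatives for single genes and lists none reversed a called direction, and 13 of 130 for the higher genes, 12 of 103 for the lower genes and 14 of 103 for the lists moved in size. The interferon median was -0.29, and 0.27 when at least 50 UMIs were required.

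With 1 library per condition no difference has a replicate check, and genes under about 50 UMIs have wide intervals. No paired analysis was possible because each condition held 1 library and no result came from a test.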
